A study of Mus musculus with 12 samples.

Results

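The genes described here encode parts of the machinery that moves mitochondria and vesicles along microtubules and holds mitochondria in place. They are Dctn1, Dctn2 and Dctn4 of dynactin, the ankyrin-B partner gene Rabgap1l, the kinesin gene Kif5b, the motor adaptor genes Trak1 and Trak2, the mitochondrial GTPase genes Rhot1 and Rhot2, and the syntaphilin gene Snph. They were taken from the deposited table by gene symbol. All 10 were among its 24528 genes, and all 10 were among the 12218 genes that passed a filter on low values. The measurements came from bulk gastrocnemius, a calf muscle, of male mice aged 4 months. The KO group held 6 samples from mice labelled Ank2f/f with HSA-Cre+, and the WT group held 6 from littermate controls labelled Ank2f/f with no Cre named, so both groups carried floxed Ank2 alleles. HSA-Cre is known as a driver of Cre from a skeletal actin promoter in muscle fibres, and other cells of the tissue keep their Ank2. Since no group carried Cre alone, effects of Cre and of the deletion cannot be told apart.

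Dynactin is a multi-subunit complex that binds cytoplasmic dynein and lets this motor carry cargo towards the minus ends of microtubules. On mitochondria, the Miro GTPases encoded by Rhot1 and Rhot2 sit in the outer membrane and bind the TRAK adaptors, which recruit kinesin and dynein. Syntaphilin works against this movement in neurons, where it docks axonal mitochondria on microtubules. Ankyrin-B, the product of Ank2, is known to bind the dynactin subunit encoded by Dctn4 and to recruit the Rabgap1l protein to endosomes, as shown in neurons and fibroblasts.

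Between 13408868 and 18705997 reads were estimated per KO library and between 12283866 and 16906931 per WT library. Markers of muscle fibres made up 23.0% to 25.1% of the scaled reads in KO and 22.8% to 26.2% in WT. Ank2, the targeted gene on chromosome 3, had deposited log2 values of 7.54 to 8.03 in KO libraries, with a median of 7.68, and of 8.40 to 9.22 in WT libraries, with a median of 8.98. The groups did not overlap, and Ank2 fell by 1.15 (SE 0.14, limma adjusted p = 0.00088) on the deposited scale, which compresses low values. On reads estimated from these values, KO libraries stood at 26.3% to 44.3% of the WT mean, with a mean of 33.1%. A single KO library, KO 2, lay closest to WT in both genes described below as lower, and KO 1 was the lowest of the 12 libraries in 5 of the 10 genes. Among all tested genes, 21.6% were lowest in KO 1.

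KO muscle had less Snph and Rhot2 mRNA than WT muscle, and the other 8 genes did not pass the test. Snph fell to 19.2% ± 15.3 of the WT mean in KO, against 100% ± 13.0 in WT, and Rhot2 fell to 76.8% ± 10.4 in KO, against 100% ± 7.35 in WT (SD, n = 6 each, on reads estimated from the deposited values). Thus 2 of 10 genes were called lower and none higher, where 3.08% of all tested genes were called lower and 3.12% higher, 6.20% in all (limma, with p adjusted over all tested genes by the Benjamini-Hochberg method and a threshold of 0.05). Estimates were negative for 8 of the 10 genes, beside 52.4% of all tested genes, and positive for Dctn1 and Dctn2. An unadjusted limma p at or under 0.05 with a negative estimate was reached by 5 of the 10 genes, beside 14.1% of all tested genes. None reached it with a positive estimate, beside 11.9%. The 5 were Snph, Rhot2, Kif5b, Trak1 and Trak2, and all but Snph were lowest in KO 1. Since the 10 genes were chosen with earlier results of these data known, these counts are descriptive and test nothing. The median change of the 10 genes was -0.19, against -0.01 for all tested genes. In bulk tissue, fewer cells of a type and less RNA per cell cannot be told apart.

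**Figure D1:**
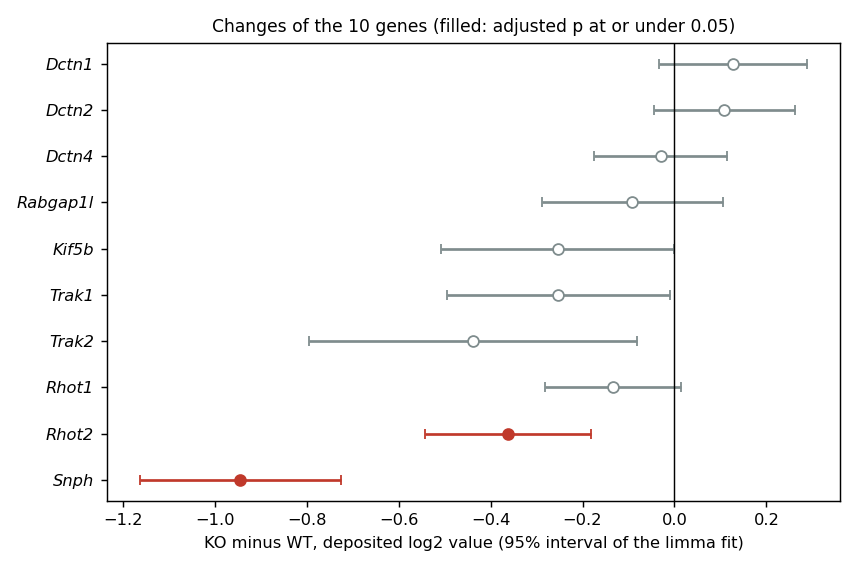
Change of each of the 10 genes, KO minus WT, in deposited log2 units (x axis), with the 95% interval of the limma fit as bars and filled points for an adjusted p at or under 0.05. Snph at -0.94 and Rhot2 at -0.36 are the filled points, and the intervals of Dctn1, Dctn2, Dctn4, Rabgap1l and Rhot1 include 0.

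The genomic context of the genes that fell, and of Rhot1 as the paralog of Rhot2, is given by their promoters. Snph spans chr2:151590549-151632593 and Rhot2 chr17:25838457-25844851, both on the minus strand, and Rhot1 spans chr11:80209019-80267907 on the plus strand (mm10, GENCODE release M21). The RefSeq promoter table, on build GRCm38.p6, covers 250 bases before to 50 after each start, and 8 of the 10 symbols matched it. The sequences run 5′ to 3′ in the direction of the gene. Capitals mark matches on either strand to the myogenic E-box CAGCTG, the GC box GGGCGG, the CCAAT box CCAAT or the NRF1 core, which is GCGC followed by 2 bases of any kind and GCGC.
Snph, chr2:151632544-151632843, minus strand: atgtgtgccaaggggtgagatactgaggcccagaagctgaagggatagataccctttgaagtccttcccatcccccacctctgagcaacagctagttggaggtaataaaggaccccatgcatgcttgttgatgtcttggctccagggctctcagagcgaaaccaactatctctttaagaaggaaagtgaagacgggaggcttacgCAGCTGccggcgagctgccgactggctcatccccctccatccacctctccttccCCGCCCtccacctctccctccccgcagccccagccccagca
Rhot2, chr17:25844476-25844775, minus strand: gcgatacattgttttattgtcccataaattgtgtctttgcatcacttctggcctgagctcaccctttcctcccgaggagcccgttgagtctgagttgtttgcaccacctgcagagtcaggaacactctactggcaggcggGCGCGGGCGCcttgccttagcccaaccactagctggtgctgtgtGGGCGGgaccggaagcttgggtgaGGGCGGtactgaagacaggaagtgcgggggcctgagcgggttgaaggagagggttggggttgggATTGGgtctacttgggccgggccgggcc
Rhot1, chr11:80208801-80209100, plus strand: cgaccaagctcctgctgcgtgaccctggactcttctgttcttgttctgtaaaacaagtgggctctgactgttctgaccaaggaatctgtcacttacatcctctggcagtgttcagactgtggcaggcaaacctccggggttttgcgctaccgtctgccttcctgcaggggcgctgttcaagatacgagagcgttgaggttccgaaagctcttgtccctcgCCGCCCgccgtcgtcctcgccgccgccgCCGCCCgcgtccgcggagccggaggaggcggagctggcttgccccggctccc
The Snph window held 1 CAGCTG, which began 45 bases before the start, and 1 GC box, which began 9 bases after it. The Rhot2 window held GC boxes at 66 and 42 bases before the start, an NRF1 core at 110 bases before it and a CCAAT box at 22 bases after it. The Rhot1 window held GC boxes at 30 and 2 bases before the start and no match to the NRF1 core. Of 32851 promoters in the table, 16.3% held CAGCTG, 35.7% GGGCGG, 37.4% CCAAT and 6.23% the NRF1 core. Matches to CANNTG, which includes CAGCTG and is not marked, stood 146 bases before the start in Rhot2 and 197 in Rhot1, and 72.3% of all promoters held 1 or more. The estrogen-related receptor element AAGGTCA, held by 4.72% of promoters, and the TATA box TATAAA, held by 13.6%, were not found in these 3 windows. The G and C content was 57.7% in Snph, 60.0% in Rhot2 and 62.7% in Rhot1, against a median of 52.7% over the table. These matches describe the letters only, and no binding was measured.

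None of the dynactin genes passed the test. Dctn1 (chr6:83165920-83200117, plus strand), which encodes the large subunit that binds dynein and microtubules, had deposited log2 values of 11.51 to 11.76 in KO libraries, with a median of 11.64, and of 11.33 to 11.61 in WT libraries, with a median of 11.55. The groups overlapped, with 3 KO libraries above every WT library. The change was 0.13 (SE 0.08, 95% interval -0.03 to 0.29, limma adjusted p = 0.302). Dctn2 (chr10:127266368-127281950, plus strand) encodes dynamitin, a subunit of the shoulder that joins the arm of dynactin to its filament. Its values ran from 10.52 through a median of 10.60 to 10.76 in KO and from 10.38 through 10.49 to 10.66 in WT. The change was 0.11 (SE 0.07, 95% interval -0.045 to 0.26, limma adjusted p = 0.354). Every KO library lay above the WT median, but 5 of 6 were inside the WT range.

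Dctn4 (chr18:60526185-60558766, plus strand), which encodes the pointed-end subunit that ankyrin-B binds, showed no detectable difference. Its values ran from 9.07 through a median of 9.17 to 9.27 in KO and from 9.01 through 9.20 to 9.33 in WT, so that all 6 KO libraries were inside the WT range. The change was -0.03 (SE 0.07, 95% interval -0.17 to 0.11, limma adjusted p = 0.811), and its sign turned with quantile normalization and with a correction for gene length. None of the 9 other dynactin subunit genes tested passed the test. Their median change was -0.03, with a range of -0.31 for Capza2, a capping protein subunit gene (limma adjusted p = 0.108), to 0.15 for Dctn3, a gene of the shoulder (limma adjusted p = 0.24). By unadjusted p at or under 0.05, limma counted 1 of these 9 genes, beside 26.0% of all tested genes, and limma-voom on estimated reads called none of them after adjustment.

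Rabgap1l (chr1:160219174-160793211, minus strand) encodes a GTPase-activating protein for Rab proteins. It was read at low depth, with 65.4 to 145 estimated reads in KO libraries and 87.2 to 123 in WT libraries. Its log2 values ran from 7.18 through a median of 7.48 to 7.69 in KO and from 7.39 through 7.56 to 7.80 in WT. Of the KO libraries, 5 were inside the WT range and KO 5 was below it. The change was -0.09 (SE 0.09, 95% interval -0.29 to 0.11, limma adjusted p = 0.555), and it was 0.05 after the correction for gene length. Of its annotated exon bases, 166 are shared with an antisense gene, and the labels describe no step that marks strand.

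Of 14 genes of the endosomes and integrins tied to ankyrin-B and Rabgap1l, 2 fell and none rose, beside 3.08% of all tested genes called lower. They were Eea1, a tether of early endosomes (-0.46, SE 0.12, limma adjusted p = 0.0342), and Itgb1, the integrin beta chain carried by Rabgap1l-dependent recycling in fibroblasts (-0.35, SE 0.10, limma adjusted p = 0.0482). On the deposited scale all 6 KO libraries were below all 6 WT libraries in both, as in 1.20% of all tested genes. For Itgb1 the gap was narrow, between 11.297 in the highest KO library and 11.299 in the lowest WT library. On estimated reads scaled by annotated exon length and by library total, the groups overlapped in both genes. There the highest KO and lowest WT values were 38.2 and 35.8 for Itgb1, and 3.52 and 3.37 for Eea1. The list median was -0.15, against -0.01 over all tested genes. Both calls ended without any 1 of KO 1, KO 3, KO 6, WT 1, WT 2, WT 3 and WT 5, with adjusted p up to 0.0781 for Eea1 and 0.118 for Itgb1. The call of Itgb1 also ended without WT 6, under limma-voom (0.0557), the median shift (0.0524), quantile normalization (0.0687), no filter (0.054), a pseudocount of 0.1 (0.0503) and without KO 1 and KO 2 together (0.0591).

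Kif5b (chr18:6201002-6242174, minus strand) encodes the widely expressed heavy chain of the kinesin that carries mitochondria towards the plus ends of microtubules. Its values ran from 10.45 through a median of 11.05 to 11.28 in KO and from 11.06 through 11.22 to 11.39 in WT. KO 1 was the lowest library and 4 KO libraries lay below every WT library, while 2 were inside the WT range. The change was -0.25 (SE 0.12, 95% interval -0.51 to -0.00052, limma adjusted p = 0.192). Without KO 1 it was -0.15. Of its annotated exon bases, 182 and 142 are shared with a pair of antisense genes, whose reads cannot be told apart if the libraries carry no strand.

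Kif5c, a paralog of Kif5b known mainly from neurons, was the 1 gene that rose among the 12 other kinesin and kinesin light chain genes tested, and none fell, beside 3.12% of all tested genes called higher and 3.08% called lower. Its log2 values ran from 6.56 through a median of 7.20 to 7.78 in KO and from 6.13 through 6.48 to 6.58 in WT. The rise was 0.76 (SE 0.16, limma adjusted p = 0.0183), and 5 of 6 KO libraries were above every WT library. KO 2 was within the WT range. The depth was low, with 20.1 to 151 estimated reads per KO library and 6.00 to 23.9 per WT library. On estimated RPKM, which are estimated reads scaled by annotated exon length and by library total, Kif5c stood at 0.681 ± 0.362 in KO and 0.167 ± 0.0543 in WT, whereas Kif5b stood at 16.2 ± 2.86 in KO and 19.0 ± 2.09 in WT (SD, n = 6 each). Kif5c was thus the minor of these paralogs in both groups. Kif5a, the third heavy chain gene, gave 0.31 (SE 0.10, limma adjusted p = 0.0697).

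The TRAK adaptor genes had negative estimates that did not pass the test. Trak1 (chr9:121297502-121474918, plus strand) encodes an adaptor that binds both kinesin and dynein. Its values ran from 10.69 through a median of 11.22 to 11.45 in KO and from 11.20 through 11.45 to 11.60 in WT. The change was -0.25 (SE 0.11, 95% interval -0.50 to -0.01, limma adjusted p = 0.176). Trak2 (chr1:58900449-58973430, minus strand), whose protein is tied mainly to dynein in neurons, ran from 10.03 through 10.80 to 11.19 in KO and from 10.82 through 11.21 to 11.44 in WT. The change was -0.44 (SE 0.17, 95% interval -0.80 to -0.08, limma adjusted p = 0.121). In both genes 3 KO libraries lay below every WT library and 3 within the WT range, and KO 1 was the lowest. Without KO 1 the changes were -0.16 and -0.30.

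**Figure D2:**
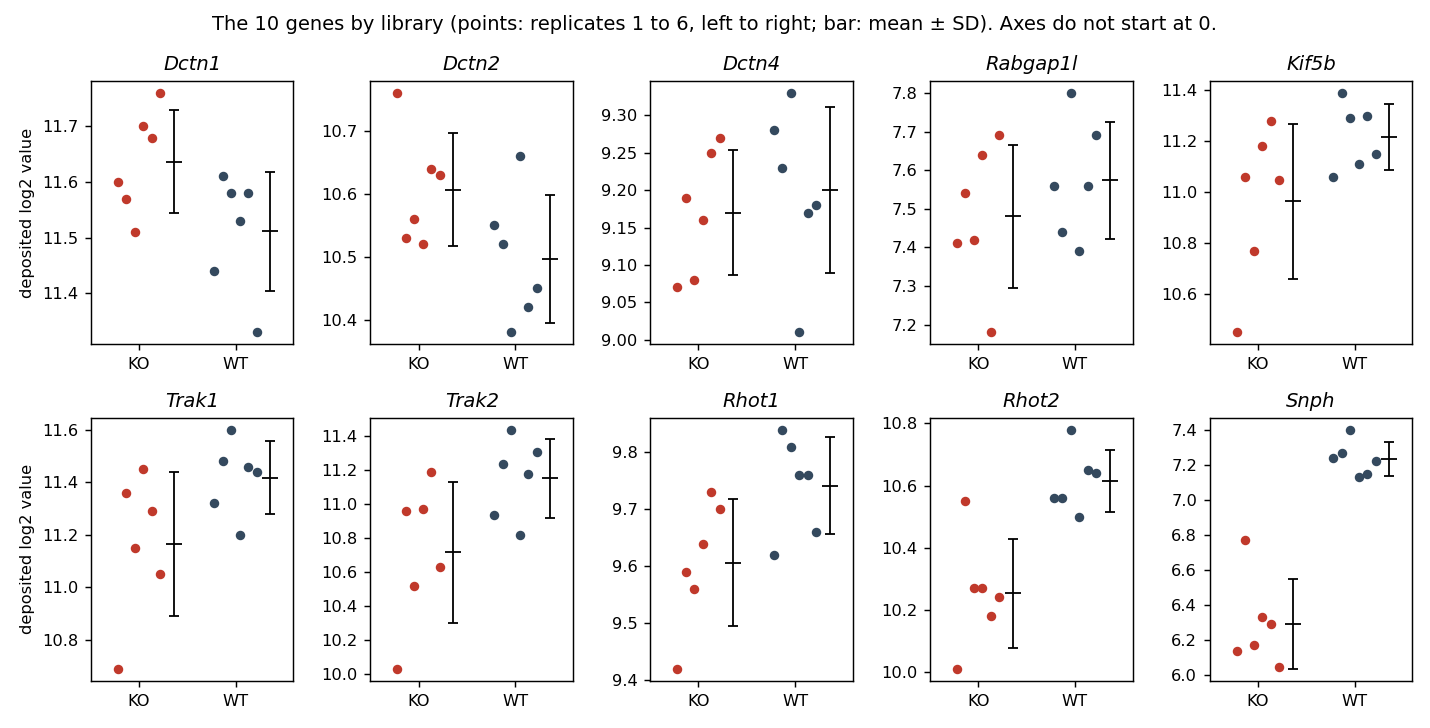
Deposited log2 value (y axis, not starting at 0) of each of the 10 genes in the 6 KO and the 6 WT libraries (points, replicates 1 to 6 from left to right), with mean ± SD beside each group. Snph values separate by genotype, at 6.05 to 6.77 in KO and 7.13 to 7.40 in WT, and KO 1 is the lowest library in Kif5b, Trak1, Trak2, Rhot1 and Rhot2.

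Rhot2 fell in KO muscle. It encodes a Miro GTPase, which ties TRAK adaptors to the outer mitochondrial membrane. Its log2 values ran from 10.01 through a median of 10.26 to 10.55 in KO and from 10.50 through 10.60 to 10.78 in WT. KO 2, at 10.55, was within the WT range, and the other 5 KO libraries were below every WT library. The change was -0.36 (SE 0.09, 95% interval -0.54 to -0.18, limma adjusted p = 0.0261; exact permutation p = 0.00433). Between 1069.8 and 1429.8 estimated reads per KO library and between 1240 and 1499 per WT library stood behind these values. The call ended without KO 1 (adjusted p = 0.0532), KO 3 (0.0549), KO 6 (0.0618), WT 2 (0.0539), WT 3 (0.0695), WT 5 (0.0523) or WT 6 (0.0508), with the change between -0.42 and -0.31 over the 12 omissions. In the annotation, 81 exon bases of Rhot2 overlap Wdr90 and 1307 overlap the protein-coding model Gm20683, both on the same strand. Wdr90 is among the deposited genes, and Gm20683 is not listed there under that symbol. How shared reads were assigned is not given in the sources used here.

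Rhot1, the paralog of Rhot2, gave a smaller estimate that did not pass the test. Its values ran from 9.42 through a median of 9.62 to 9.73 in KO and from 9.62 through 9.76 to 9.84 in WT, and all 6 KO libraries lay below the WT median. The change was -0.13 (SE 0.07, 95% interval -0.28 to 0.01, limma adjusted p = 0.236). The difference between the paralogs was tested within libraries. Rhot1 minus Rhot2 was -0.65 ± 0.18 in KO and -0.88 ± 0.11 in WT (SD, n = 6 each), a difference of 0.23 (exact two-sided permutation p = 0.026, and 0.0779 adjusted over the 3 pairs compared), so the changes of the paralogs were not told apart. Of the 12 omissions of 1 library, only that of KO 2 passed the threshold, with a difference of 0.29 (adjusted exact permutation p = 0.013). Trak1 minus Trak2 was 0.45 ± 0.20 in KO and 0.26 ± 0.10 in WT, a difference of 0.19 (exact permutation p = 0.0758, adjusted 0.114). Here only the omission of KO 5 passed, with a difference of 0.25 (adjusted exact permutation p = 0.013). Both omissions were singled out after their values were seen. Dctn1 minus Dctn2, which are not paralogs but subunits of 1 complex, was 1.03 ± 0.12 in KO and 1.01 ± 0.15 in WT (exact permutation p = 0.823, adjusted 0.823).

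The Snph values of the groups did not overlap. Its log2 values ran from 6.05 through a median of 6.23 to 6.77 in KO and from 7.13 through 7.23 to 7.40 in WT. KO 2 was the highest KO library, at 6.77, and the other 5 were between 6.05 and 6.33. Among all tested genes, 1.20% had all 6 KO libraries below all 6 WT libraries, and 1.27% had them all above. The change was -0.94 (SE 0.10, 95% interval -1.16 to -0.73, limma adjusted p = 0.000239). The exact permutation p was 0.00216, which is the lower limit of a test with 924 assignments. Snph kept its call without each of the 12 libraries in turn, with changes between -1.04 and -0.90 and adjusted p up to 0.00146.

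The deposited scale compresses differences between low values, and Snph was a low transcript. It was read with 5.96 to 30.1 estimated reads per KO library, a median of 10.5, and with 55.9 to 73.0 per WT library, a median of 65.6. It passed the filter through the WT libraries, since only 3 of 6 KO libraries held at least 10 estimated reads. As a percent of the WT mean, KO 2 stood at 49.2%, and the other KO libraries stood between 7.49% and 19.2%, against 86.2% to 123% in WT libraries. On log2 scaled reads with a pseudocount of 1 the change was -2.54, and it was -2.61 with limma-voom on estimated reads. No other annotated gene overlaps Snph.

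**Figure D3:**
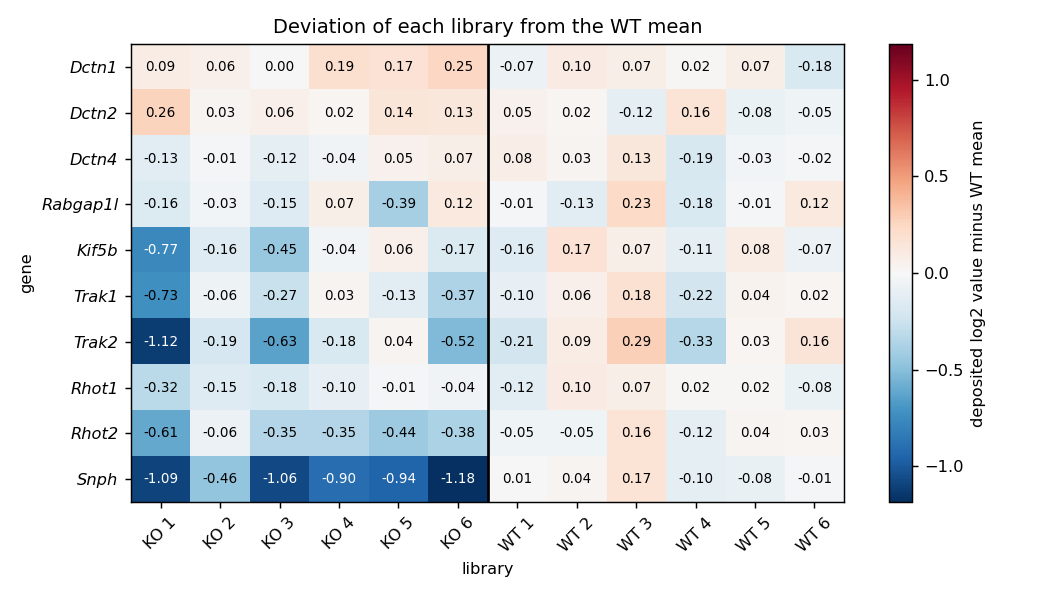
Deposited log2 value of each library minus the WT mean of the gene, for the 10 genes (rows) in the 6 KO and the 6 WT libraries (columns), with each value printed and coloured blue below and red above the WT mean. The Snph row is negative in all 6 KO libraries, from -1.18 in KO 6 to -0.46 in KO 2, and the Rhot2 row is between -0.61 and -0.35 in KO except for -0.06 in KO 2.

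Syntaphilin is best known from neurons, so markers of nerve were set beside it. Of 12 neuronal marker genes, 2 passed the filter, and their directions differed. Uchl1, a ubiquitin hydrolase gene, rose by 0.79 (SE 0.16, limma adjusted p = 0.0133), and Stmn2, a gene of microtubule regulation in axons, gave -0.34 without passing the test (SE 0.10, limma adjusted p = 0.0505). The neurofilament gene Nefl was at the lowest value in all 12 libraries, and Syn1 had at most 7.03 estimated reads in KO and 3.02 in WT. The summed level of the 12 genes was 86.6 to 208 scaled reads in KO and 54.4 to 123 in WT. None of 9 Schwann cell markers tested passed the test, with a median change of -0.08, and their summed level with Gjb1 was 517 to 7246 scaled reads in KO and 1169 to 3897 in WT. The upper end in KO was KO 1 alone, and the other 5 KO libraries reached at most 1668. All 8 slow-fibre markers had negative estimates, none called, with a median change of -1.86. By unadjusted limma p at or under 0.05, 6 of the 8 were lower, beside 14.1% of all tested genes. Their summed level was 1206 to 17181 scaled reads in KO and 6408 to 65996 in WT. All 8 markers of smooth muscle and pericytes had negative estimates, with a median of -0.31. Of these, 1 was called, Myh11 (-0.54, limma adjusted p = 0.0418), beside 3.08% of all tested genes called lower. By unadjusted limma p at or under 0.05, 4 of the 8 were lower, beside 14.1% of all tested genes. Their summed level was 4565 to 7802 scaled reads in KO and 6402 to 8900.3 in WT. Of 10 endothelial markers, 7 had negative estimates with a median of -0.15, Flt1 fell by 0.50 (limma adjusted p = 0.0347), and the summed level was 4268 to 6503 scaled reads in KO and 5037 to 6609 in WT. Of 6 satellite cell markers tested, Cdh15 fell by 0.37 (limma adjusted p = 0.0342) and Sdc4 rose by 0.27 (limma adjusted p = 0.033), with a summed level of 788 to 880.2 in KO and 788 to 864 in WT. Of 5 adipocyte markers tested, Car3 rose by 0.73 (limma adjusted p = 0.0256) and Adipoq fell by 0.34 (limma adjusted p = 0.0429). Cfd (-0.58, limma adjusted p = 0.104), Cidec (-0.27, limma adjusted p = 0.159) and Fabp4 (0.01, limma adjusted p = 0.969) were not called. The summed level of the 8 listed genes was 35476 to 78113 in KO and 25543 to 37763 in WT. Most of it was Car3, which reached 90756 estimated reads in KO, where Fabp4 reached 2280 and Adipoq 14.0. The sum therefore describes mainly Car3 and not the other listed genes. Plin1, Lep and Retn did not pass the filter. They reached at most 3.96, 5.00 and 4.71 estimated reads in KO, and 16.9, 9.98 and 14.4 in WT. Limma called none of 8 macrophage and none of 8 fibroblast markers. An unadjusted limma p at or under 0.05 was found for 2 of the macrophage and 0 of the fibroblast markers, beside 26.0% of all tested genes. Estimates were negative for 1 of 8 macrophage markers (median 0.22) and 0 of 8 fibroblast markers (median 0.18), beside 52.4% of all tested genes. For the calls in all these marker lists, the shares over all tested genes were 3.08% lower and 3.12% higher. The part of fibre type and of these other cells in the Snph and Rhot2 results was not tested.

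The tested genes whose pattern across the 12 libraries was most like that of Snph were C530008M17Rik, 6330410L21Rik, Asb14 and Slc12a2. Likeness was the root mean square difference between values centred on each gene's mean, and it was 0.16, 0.16, 0.16 and 0.17 log2 units. On this compressed scale their changes were -0.85, -0.73, -0.72 and -0.78. On log2 scaled reads with a pseudocount of 1 the changes were -2.01 for C530008M17Rik, -1.66 for 6330410L21Rik, -0.76 for Asb14 and -0.83 for Slc12a2, against -2.54 for Snph, so the likeness holds for the deposited values and not for the size of the change in reads. In C530008M17Rik, 6330410L21Rik and Asb14 every KO library was below every WT library, and in Slc12a2 5 of 6 were. Among all tested genes, 1.20% had all KO libraries below all WT libraries. These genes were chosen for their likeness to Snph, so their falls and this separation follow from the choice.

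Set by level per length, Dctn1 was the highest of the 10 genes in both groups, and the lowest was Rabgap1l in WT and Snph in KO. On estimated RPKM, the WT order from the top was Dctn1 (28.7 ± 2.28), Rhot2 (22.1 ± 2.47), Trak2 (20.7 ± 4.00), Kif5b (19.0 ± 2.09), Dctn2 (18.7 ± 0.803), Trak1 (14.0 ± 1.85), Rhot1 (6.81 ± 0.470), Dctn4 (2.85 ± 0.351), Snph (0.598 ± 0.0910) and Rabgap1l (0.310 ± 0.0657; SD, n = 6 each). Rhot2, Trak2, Kif5b and Dctn2 overlapped in range, as did Trak1 with Kif5b and Trak2. In KO the levels were 31.9 ± 1.89 for Dctn1, 20.5 ± 1.88 for Dctn2, 17.1 ± 2.02 for Rhot2, 16.2 ± 2.86 for Kif5b, 15.4 ± 3.85 for Trak2 and 11.9 ± 1.99 for Trak1. Rhot1 stood at 6.22 ± 0.401, Dctn4 at 2.80 ± 0.127, Rabgap1l at 0.282 ± 0.0602 and Snph at 0.114 ± 0.0875. Snph was above Rabgap1l in WT with no overlap, and below it on average in KO, where the ranges overlapped. The length counts every annotated exon, 23.2 kilobases for Rabgap1l and 7.86 for Snph, so a gene with many unused exons is set too low, and neighbours in the order may change with the transcript used.

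**Figure D4:**
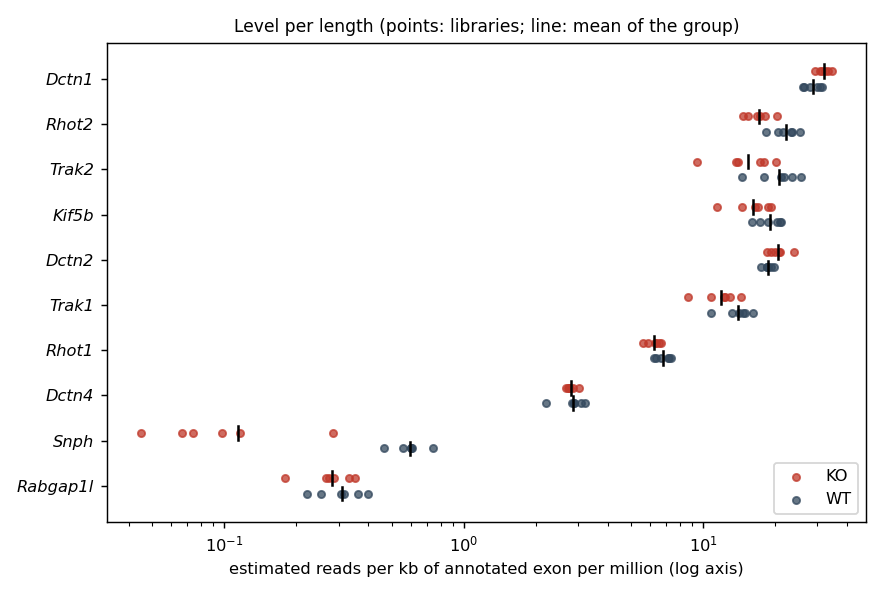
Level per length of the 10 genes in estimated RPKM (x axis, log scale), with KO libraries above WT libraries in each row and a line at each group mean. Snph separates, at 0.114 in KO and 0.598 in WT, and the other genes overlap between the groups.

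The rest of the transport machinery was read from lists of related genes. Cytoplasmic dynein gave no call among 9 tested genes, with a median change of -0.01 and a range of -0.19 for the heavy chain gene Dync1h1 (limma adjusted p = 0.279) to 0.29 for the light chain gene Dynlrb1 (limma adjusted p = 0.108). By unadjusted p at or under 0.05 limma counted 1 of the 9, beside 26.0% of all tested genes, and limma-voom called none after adjustment. Of 14 dynein regulators and activating adaptors, 3 fell and none rose, beside 3.08% of all tested genes called lower and 3.12% called higher. They were Nin, which encodes the centrosomal protein ninein (-0.49, SE 0.13, limma adjusted p = 0.0404), Rab11fip3, a Rab effector of recycling endosomes (-0.38, SE 0.11, limma adjusted p = 0.0465), and Ndel1, a regulator that binds dynein and the LIS1 protein (-0.30, SE 0.08, limma adjusted p = 0.0425). The list median was -0.03, and 8 of 14 estimates were negative, where 52.4% of all tested genes were. All 3 calls ended without any 1 of KO 1, KO 3, KO 6, WT 1, WT 2, WT 3 and WT 5, with adjusted p up to 0.0878 for Nin, 0.113 for Rab11fip3 and 0.103 for Ndel1. Rab11fip3 and Ndel1 also lost theirs without WT 6, and Rab11fip3 without WT 4 (0.0523), with the median shift (0.0508) and with no filter (0.0511).

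Other factors of mitochondrial transport and anchoring did not pass the test in any of 15 tested genes. Their median change was 0.003, and the estimates ran from -0.32 for Mfn2, a mitofusin gene whose protein binds Miro (limma adjusted p = 0.124), to 0.15 for Myo19, the gene of a myosin on mitochondria (limma adjusted p = 0.356). Limma counted 3 of the 15 by unadjusted p at or under 0.05, beside 26.0% of all tested genes, and limma-voom called none after adjustment. Of 19 tubulin and microtubule-associated protein genes, 2 rose and none fell, beside 3.12% of all tested genes called higher. Tuba1b, an alpha-tubulin gene, rose by 0.54 (SE 0.13, limma adjusted p = 0.0324), and Tubb6, a beta-tubulin gene, rose by 0.49 (SE 0.12, limma adjusted p = 0.033). Tuba1b is nearly identical in sequence to Tuba1a and Tuba1c, and how reads shared by them were divided is not known. Both calls ended without any 1 of KO 1, KO 3, KO 6, WT 2, WT 3, WT 5 and WT 6, with adjusted p up to 0.0791 for Tuba1b and 0.0708 for Tubb6. Tubb6 also lost its call without WT 1, and Tuba1b with limma-voom (0.0512).

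**Figure D5:**
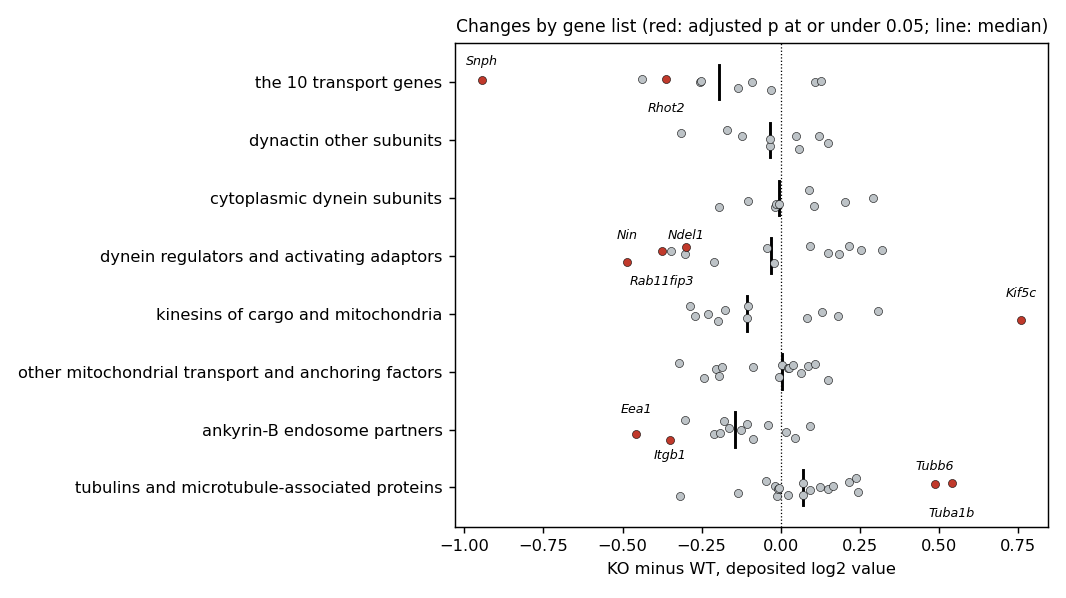
Change of each tested gene, KO minus WT, in deposited log2 units (x axis), by gene list, with red points for an adjusted p at or under 0.05 and a line at the median of each list. Called genes are labelled, and they are Snph and Rhot2 among the 10 genes, with Kif5c, Tuba1b and Tubb6 above 0 and Nin, Rab11fip3, Ndel1, Eea1 and Itgb1 below 0 in the other lists.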

How the data were processed

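Poly-A RNA of 12 gastrocnemius samples was sequenced, and the labels' protocols describe no step that marks strand. The labels do not say that each sample is a separate animal, so p-values measure the spread between these samples. The authors deposited 1 table of log2 values. Per the submitters' processing notes, the tools were fastp, STAR and featureCounts and the build mm10. No source used here gives the annotation, the settings or the normalization. Every column ends at the same lowest value, the shape of a variance-stabilizing transformation, which compresses low values.

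The transformation was inverted in closed form, and the step between low values in a library was read as 1 read. Low values then lay within 0.1 of a whole number in 89.4% to 93.7% of cases. Such reads are estimates, and SDs over them are between samples. They served the filter (at least 10 reads in at least 6 libraries), levels and some alternatives.

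The deposited values were fitted with limma 3.58.1 (R 4.3.3), with trend, robust moderation and group as the only term. Tests were two-sided, with Benjamini-Hochberg adjustment over 12218 genes. Single values were compared by an exact permutation test over 924 assignments. On simulated data of these genes, the fit recovered 84% of 100 genes changed by 0.5 and 100% of 100 changed by 1, with 12 false calls, where genes varied independently. Lengths and positions came from GENCODE M21.

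The 10 genes and all lists were chosen with earlier results of these data known. Named genes were the 10, Ank2, every called gene of the lists and the 4 genes most like Snph; other list genes named at the ends of a range, Kif5a and the cell type markers were chosen after their values were seen. Alternatives covered the test, variance model, scaling, filter, pseudocount, replicate number, gene length and omitted libraries. The length correction and the joint omission of KO 1 and KO 2 were chosen after seeing the data.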

Additional observations from a re-analysis of the deposited data

Results flagged for a closer look

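Of 46 groups of 6 libraries checked for a library far from the others, in 23 named genes, 2 stood out, and chance gives about 1 in 20. Kif5c was 6.13 in WT 3, against 6.41 to 6.58 in the other WT libraries. C530008M17Rik was 7.62 in WT 2, against 7.25 to 7.33 in the other WT libraries. None of the 10 transport genes had such a library in either group.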

How the results depend on the processing

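Both calls among the 10 genes, Snph and Rhot2, held under limma-voom, the variance model without trend, both scalings, both filters, the replicate block, the length correction and the omission of KO 1 and KO 2 together. When 1 library was left out, the count was 1 to 2. The number of all called genes, 757, ran from 194 to 1514 over such omissions, with 272 without KO 1, 1514 without KO 2, 225 without KO 3 and 194 without KO 6, and 367 without WT 1, 207 without WT 2, 205 without WT 3, 317 without WT 5 and 366 without WT 6. Reversed estimates were those of Dctn4 (0.000522 with quantile normalization, 0.058 with the length correction) and Rabgap1l (0.048 with the length correction), and the difference between Dctn1 and Dctn2, 0.02 over all libraries, was negative without KO 4 (-0.012), WT 1 (-0.0053), WT 4 (-0.01) or WT 6 (-0.0097), and the cause was not tested. The differences within pairs ran from 0.19 to 0.29 for Rhot1 minus Rhot2, from 0.14 to 0.25 for Trak1 minus Trak2 and from -0.012 to 0.056 for Dctn1 minus Dctn2 over single omissions. Calls over single omissions numbered 0 to 6 for dynein regulators, 0 to 3 for endosome partners and 0 to 4 for tubulins. With limma-voom 1 endosome partner and 1 tubulin gene were called, and with quantile normalization 1 endosome partner. Same-numbered KO and WT libraries did not deviate together (correlations -0.36 to 0.29, highest with their own number in 2 of 6), so the numbers were not taken as pairs. With the replicate block 813 genes were called in all, and 5 dynein regulators. Low depth limits Snph, Kif5c and Rabgap1l most.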
